A study of Rattus norvegicus with 47 samples.

Results

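Hippocampus of the rat was compared between the side ipsilateral and the side contralateral to a brain injury, 4 h after it. All arrays labelled hippocampus were taken: 16 of the 47 arrays of the study, 7 ipsilateral and 9 contralateral. The other arrays hold cortex at 4 h and at 24 h, of which the 15 arrays of the earlier time (7 ipsilateral and 8 contralateral) serve below for comparison. Each array was hybridised with total RNA extracted with Trizol, and each carries the extraction number by which it is named here: 17 to 22 and 24 are ipsilateral, 23 and 25 to 32 contralateral. Apart from 23 and 24, the lower numbers are thus ipsilateral and the higher ones contralateral. The labels do not say whether the numbers follow an order of work, and such an order could not be told apart from side. The tissue abbreviation HC of the labels was taken to mean hippocampus. Every label adds the same treatment entry, "wait". No label gives a strain, an age or the way the injury was made, and none separates injured from sham-operated animals, so the comparison is of one side with the other and not with uninjured tissue. The labels do not say whether arrays share an animal. The p-values therefore weigh a difference against the scatter among arrays, which may be technical. For the tests of single probe sets that scatter was estimated within groups over all 47 arrays.

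The hippocampus is a folded sheet of densely packed principal neurons in the dentate gyrus and the CA fields, with interneurons and glia around them. Within minutes to hours of strong synaptic activity or damage its neurons switch on immediate early genes, whose products are transcription factors and proteins of the synapse and of signalling. Glia, vessel cells and invading leukocytes answer injury with chemokines, cytokines and their regulators over hours. In bulk tissue, fewer cells of a type and less RNA per cell cannot be told apart.

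The values are signals per probe set, raised where needed to a floor, the 25th percentile over the whole table (186 in signal, 7.54 in log2), and taken to log2. All levels and differences below are on that scale, differences are ipsilateral minus contralateral with their standard error (SE), and a fold against arrays at the floor is understated. A probe set that passed an adjusted p of 0.05 (limma, Benjamini-Hochberg over 7503 probe sets, two-sided) is called, and only such a probe set is said to have risen or fallen. For a gene described in full, its lowest, median and highest level over the 7 ipsilateral and then over the 9 contralateral arrays is given. The number of arrays limits the precision.

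As deposited, the arrays had the same mean (2%-trimmed means from 2502.87 to 2503.06), but they differed between the sides at their low end. The 10th percentile of the signal, a measure of how bright the dimmest probe sets are, was 36.4, 41.2 and 56.7 (lowest, median, highest) on the ipsilateral arrays and 45.8, 58.8 and 98.9 on the contralateral ones. The means were 44 ± 6.85 (SD, n = 7) and 64.8 ± 16.1 (SD, n = 9), and the ranges overlapped between 45.8 and 56.7 only. The difference of -0.54 in mean log2 had an exact two-sided permutation p of 0.00253, and it was -0.46 with p = 0.00404 in the same exact permutation test without array 23, which had the highest value. In cortex at 4 h the 10th percentile was 41.1, 58.1 and 69.1 ipsilaterally and 38.1, 56.8 and 72.2 contralaterally, so that the sides covered nearly the same range there. The share of values at the floor was 13.1% to 15.5% on the ipsilateral and 9.24% to 12.7% on the contralateral hippocampal arrays. The ratio of 3-prime to 5-prime signal of the Gapdh control, which rises when RNA is degraded, was 1.05 to 1.19 and 1.02 to 1.17, and that of the actin control 1.16 to 1.43 and 1.06 to 1.36. The region label was checked in contralateral tissue: 8 of 12 measured markers of hippocampus, among them the mineralocorticoid receptor Nr3c2, Neurod1 and Gabra5, were higher than in cortex and 1, Grik5, was lower, and 6 of 8 cortical markers, among them Pvalb, Rgs4 and Vip, were lower. In that comparison 33.7% of all probe sets were called.

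**Figure D1:**
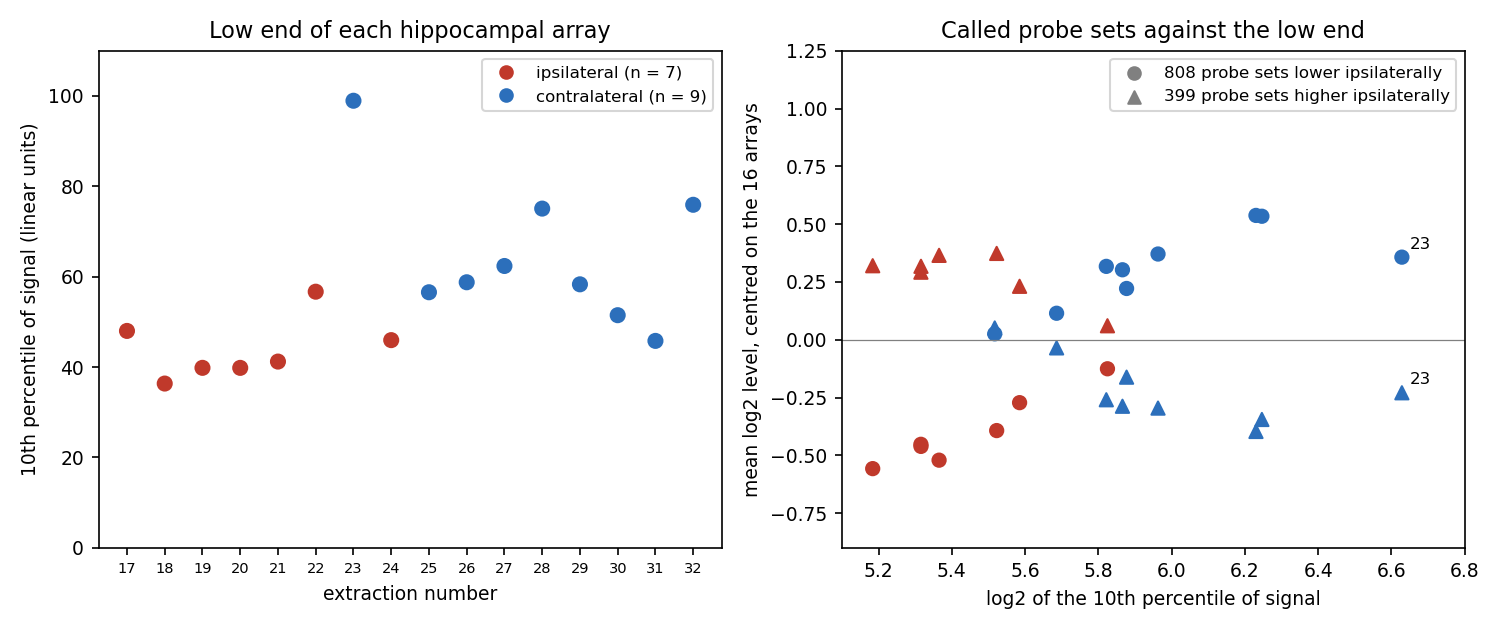
The left panel plots the 10th percentile of signal (linear units) of each hippocampal array against its extraction number, and 98.9 on array 23 is the highest value. The right panel plots, for each array, the mean level of the 808 probe sets called lower (circles) and of the 399 called higher (triangles), centred on the 16 arrays in log2 units, against log2 of the 10th percentile, and within each side the mean of the 808 is higher where the low end is higher, with array 23 below that trend.

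Of the 7503 probe sets 1207 were called (16.1%), 399 higher on the ipsilateral side (5.32%) and 808 lower (10.8%). The called probe sets that name a gene cover 883 genes. With 1 probe set per gene, 204 of 4242 genes were higher (4.81%) and 488 lower (11.5%). These shares are the background against which the gene groups below are read. The differences were small: the median size among called probe sets was 0.59, with 13 rises and 118 falls above 2-fold. The levels of both sides did not overlap at all in 18 probe sets that were higher ipsilaterally (0.24%) and in 95 that were lower (1.27%). After quantile normalization, which gives every array the same distribution and so the same low end, 500 were higher and 583 lower; counted per gene, 5.88% were higher and 8.79% lower. The median difference over all probe sets was -0.04 as deposited and 0.01 after quantile normalization. What holds for each gene below was checked under both scalings, and a call that quantile normalization ends is named where it occurs. With the 10th percentile as a covariate 5 probe sets were called. Leaving out 1 array at a time gave 799 (without 21) to 1446 calls (without 22). Side, low end and extraction number cannot be fully told apart in these arrays. The values with and without the 10th percentile as a covariate are given after the gene groups.

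Cited2 had the largest rise of the 399, and the other rises given here are of genes with different roles. Cited2, a partner of the coactivators CBP and p300, had levels of 10.34, 10.59 and 10.70 ipsilaterally and 7.54, 9.12 and 10.18 contralaterally, a rise of 1.60 ± 0.35 (adjusted p = 0.0020). All 7 ipsilateral arrays lay within a narrow band above every contralateral array, while the contralateral arrays were spread widely down to the floor. Cdk17, a kinase of the cyclin-dependent family found in postmitotic neurons, was at 12.02, 12.14 and 12.24 against 10.94, 11.45 and 11.997, and rose by 0.67 ± 0.10 (adjusted p = 6.1e-05), again with no overlap. Nell1, a secreted glycoprotein with EGF-like domains, rose by 0.93 ± 0.22, and Vcf1 by 0.75 ± 0.15 with no overlap. Zbtb24, a zinc finger protein of the nucleus, rose by 1.41 ± 0.34, but its contralateral levels ran from the floor to 9.78 on array 31, as high as the highest ipsilateral array. Crispld2, a secreted protein, rose by 1.04 ± 0.25. Further rises among probe sets above the median level were those of Ube2g2, an enzyme of ubiquitin conjugation, by 0.79 ± 0.17, of the smooth muscle actin Acta2 by 0.77 ± 0.18, of Mtpn by 0.73 ± 0.18, of the phosphatase subunit Ppp1cb by 0.71 ± 0.20, of the phosphatase Ptpn23 by 0.71 ± 0.21, of the adhesion receptor Adgrl2 by 0.69 ± 0.20 and of the membrane protein Serinc5 by 0.69 ± 0.23. In these 7 the sides overlapped, and 1 low contralateral array, number 28, was at 8.97 for Ube2g2, 9.05 for Mtpn and 9.08 for Ppp1cb. The call of Serinc5 was lost on leaving out any 1 of 8 arrays (adjusted p up to 0.065, limma).

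Genes that neurons switch on with activity were higher in several cases and lower in others. Of 31 measured genes of this list, each counted by its brightest probe set, 4 rose (Egr1, Vgf, Jun and Klf10), 2 fell (Egr4 and Ier3) and 25 were not called, with a median difference of 0.13 against -0.04 over all genes. After quantile normalization 3 were higher and 1 lower. Egr1, the zinc finger transcription factor whose induction is widely used as a mark of neuronal activity, was at 13.60, 14.06 and 14.38 ipsilaterally and 12.86, 13.43 and 13.83 contralaterally, a rise of 0.56 ± 0.15 (adjusted p = 0.012). The sides overlapped in a narrow range, and the other 3 probe sets of Egr1 differed by 0.35, 0.13 and -0.17 and were not called. Egr4, of the same family, went the other way: 10.43, 10.78 and 11.50 against 11.11, 11.90 and 12.06, and it fell by 0.79 on the log2 scale, with an SE of 0.19. Errfi1, a feedback inhibitor of the EGF receptor, rose by 1.30 ± 0.35 in 1 probe set and by 0.50 ± 0.18 in another; the second call was lost on leaving out any 1 of 9 arrays (adjusted p up to 0.14). Klf10, a transcription factor induced by TGF-beta, rose by 0.52 ± 0.16, a call lost without array 24 (adjusted p = 0.062) or array 32 (0.054). Vgf, a neuronal secretory protein induced by neurotrophins, rose by 0.29 ± 0.09 from a high level, a call lost without array 21 (0.053) or array 24 (0.054). The call of Jun, 0.38 ± 0.14, was lost under quantile normalization (0.058) and on leaving out any 1 of 14 arrays. For Fos only 1 of 3 probe sets was called, at 0.74 ± 0.25, and that call was lost on leaving out any 1 of 6 arrays (adjusted p up to 0.11); the other probe sets of Fos differed by 0.44 and -0.22. Dusp1, which encodes a phosphatase of MAP kinases, likewise rose in 1 probe set of 3, by 0.70 ± 0.20, while the others differed by 0.02 and 0.36. These genes and the promoters below were chosen after their values were seen, except where the rule for named genes picked them.

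The cyclic AMP response element, the site through which CREB acts on many activity-regulated genes, was searched for as the letters TGACGTCA, which read the same on both strands, in the window from 250 bases before to 50 after the start of each gene in RefSeq (GRCr8). It occurred in 525 of 27457 promoters (1.91%), in 88 of the 3472 tested genes with a promoter in the table (2.53%), in 10 of 248 genes that rose (4.03%), in 15 of 463 that fell (3.24%) and in 3 of 22 genes of the activity list (13.6%). The share was above that of all tested genes both among genes that rose and among genes that fell, and no test of it was made. The sites of Dusp1, of Vgf and of Ywhah, a gene with no overlap between the sides, are shown because each gene was called higher; the match is in capitals and the strand is that of the gene. Dusp1 lies at chr10:17184699-17184766 on the plus strand, Vgf at chr12:25277073-25277140 on the minus strand and Ywhah at chr14:81930328-81930395 on the minus strand.
Dusp1: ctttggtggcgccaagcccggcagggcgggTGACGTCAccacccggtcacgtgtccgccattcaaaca
Vgf: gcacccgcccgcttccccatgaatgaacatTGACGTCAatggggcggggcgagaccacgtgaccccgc
Ywhah: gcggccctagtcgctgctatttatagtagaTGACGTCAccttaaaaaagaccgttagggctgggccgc
A match is a description of the letters and not evidence of a bound site.

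Ywhah, an adaptor that binds phosphorylated proteins, was at 14.31, 14.50 and 14.62 ipsilaterally and at 13.90, 14.08 and 14.30 contralaterally. It rose by 0.38 ± 0.08 (adjusted p = 0.0014) with no overlap between the sides, although its second probe set differed by -0.04 and was not called.

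Homer1, a scaffold protein of the excitatory synapse that ties metabotropic glutamate receptors to calcium stores and has a short form induced by activity, was called in 3 of its 6 probe sets. It was at 11.47, 12.12 and 12.35 ipsilaterally and at 10.40, 11.29 and 11.78 contralaterally in its leading probe set, a rise of 0.78 ± 0.14 (adjusted p = 4.1e-04). A second probe set of Homer1 rose by 0.60 ± 0.13 and the third by 0.53 ± 0.17, while the other 3 of its 6 probe sets differed by 0.12 to 0.16 and were not called. The third call was lost on leaving out any 1 of 5 arrays (adjusted p up to 0.094). The files do not say which Homer1 transcript each probe set reads. Shank1, another scaffold of the postsynaptic density, rose by 0.51 ± 0.16 and lost its call only without array 28 (adjusted p = 0.052). Homer3 rose by 0.51 ± 0.18, lost on leaving out any 1 of 11 arrays. Nptx1, a secreted pentraxin that gathers AMPA receptors at synapses, was at 11.46, 11.76 and 12.02 against 10.79, 10.96 and 11.62 in 1 of its 3 probe sets. That probe set rose by 0.64 ± 0.13 (adjusted p = 0.0010, limma), but another was called lower, so the direction of Nptx1 is not settled. Of the 31 glutamate receptors and transporters measured, 2 were higher and 1 lower, Grm7, by 0.34 on the log2 scale, a call lost on leaving out any 1 of 7 arrays. Another probe set of Grm7 was called in the other direction, at 0.52, so its direction is not settled. The median difference of the list was -0.03.

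Kcnd3 and Kcnd2 code for subunits of A-type potassium channels, which open on depolarisation and damp the firing and the back-propagation of spikes in dendrites, and each was called higher in 1 of its probe sets. Kcnd3 was at 11.03, 11.53 and 11.63 ipsilaterally and at 10.13, 10.44 and 11.07 contralaterally, a rise of 1.01 ± 0.17 (adjusted p = 3.4e-04). Only array 32, at 11.07 the highest contralateral array, reached the ipsilateral range, and the other probe sets of Kcnd3 differed by -0.44 and -0.45 and were not called. Kcnd2 was at 11.81, 11.84 and 12.06 against 11.14, 11.36 and 11.77, a rise of 0.45 ± 0.10 with no overlap; its other probe set differed by 0.19 and was not called. Over the 39 potassium and sodium channels 3 rose and 3 fell, with a median of 0.01, and 2 of those that fell, Kcne1 and Kcnj1, lost their calls under quantile normalization (adjusted p of 0.090 and 0.085) and on leaving out any 1 of 12 arrays. Among 34 genes of calcium channels, pumps and stores, 2 rose and 7 fell, or 1 and 4 after quantile normalization. Over all genes 4.81% rose and 11.5% fell as deposited. The channel subunits Cacna1e and Cacnb1 fell by 0.88 and 0.77 on the log2 scale, with SEs of 0.20 and 0.16, and the sides did not overlap for Cacnb1. The pump Atp2a3 fell by 0.64 with an SE of 0.18. The falls of the exchanger Slc8a3 (difference of -0.63) and the pump Atp2b4 (-0.56) were lost under quantile normalization (adjusted p of 0.081 and 0.080), and on leaving out any 1 of 7 and of 10 arrays. Ppp3cb, a catalytic subunit of calcineurin, the calcium-dependent phosphatase, rose by 0.54 ± 0.14.

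In the GABA and glycine system 2 of 24 genes were higher and 2 lower, against 4.81% and 11.5% over all genes. Gabra4, an alpha subunit of GABA-A receptors found outside the synapse in dentate granule cells, rose in both of its probe sets, by 0.85 ± 0.23 and 0.49 ± 0.17; the second call was lost on leaving out any 1 of 9 arrays. Gabra6 and the GABA transporter Slc6a11 fell by 0.75 and 0.48 on the log2 scale; the first call was lost under quantile normalization (adjusted p = 0.054) and without arrays 18 (0.055) or 21 (0.056), the second on leaving out any 1 of 12 arrays. Among 38 synaptic vesicle genes the calcium sensor Syt4 rose by 0.32 ± 0.09, and the priming factor Unc13a, the vesicle protein Syngr1 and Bin1 fell, Unc13a by 0.62 with an SE of 0.14 and Syngr1 by 0.55 with an SE of 0.14. Pvalb, the calcium buffer of fast-spiking interneurons, rose by 0.43 ± 0.11. It also served above as a marker of cortex. Of those 8 cortical markers 6 had a positive difference, with a median of 0.17. By limma 1 was called higher and 0 lower, or 2 and 0 after quantile normalization. Of the 12 markers of hippocampus 2 were called higher (Nptx1 and Kcnd2) and 1 lower (Lct), with a median of -0.09. None of these had been called between hippocampus and cortex in contralateral tissue (adjusted p of 0.26, 0.69 and 0.061, limma). The 8 markers that were higher in hippocampus there had no side call (adjusted p from 0.35 to 0.76, limma). The part of cortical tissue in these differences was not tested.

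Many rises fell to small GTPases and membrane traffic, whose members move vesicles between the Golgi, endosomes and the cell surface. Of its 59 genes 10 rose and 2 fell, and 47 had a positive difference, with a median of 0.13; the share of rises over all genes was 4.81%. After quantile normalization 9 rose and 2 fell, and without array 23 the counts were 11 and 2. The list is bright: 12 of its 59 genes were at or under the median level of the tested probe sets, against 45.6% of all genes. Rises were more frequent among brighter probe sets, with 48, 65, 129 and 157 in 4 equal classes from dimmest to brightest. With the 10th percentile as a covariate the median difference of the list was 0.08 and 0 of its genes were called by limma. Arl2, a GTPase that assists tubulin folding, was at 9.11, 10.38 and 11.02 against 8.79, 8.96 and 9.70 and rose by 1.32 ± 0.38. Dnm3, a dynamin of the synapse, rose by 0.76 ± 0.24, a call lost without array 17 (adjusted p = 0.052), 28 (0.060) or 32 (0.062). Among members named after their values were seen, the Golgi GTPase Arf4 rose by 0.26 ± 0.08, Rab6a by 0.51 ± 0.16, the endosomal syntaxin Stx12 by 0.37 ± 0.12, Arf6 by 0.29 ± 0.10, Rab8b by 0.47 ± 0.15 and Rab10 by 0.40 ± 0.14. All but Arf4 lost their calls on leaving out some single array: Stx12 without 2 arrays (18 or 32, adjusted p up to 0.059), Rab6a without 3 (20, 29 or 32, up to 0.067), Arf6 without 6 (up to 0.13), Rab8b without 7 (up to 0.081) and Rab10 without 9 (up to 0.13). Rab10 also lost its call under quantile normalization (0.075). Nras, a GTPase of growth signalling counted in the same list, fell by 0.59 with an SE of 0.14 and no overlap between the sides, while its other probe set differed by 0.05 and was not called.

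Single genes of the Golgi and the lysosome were called in both directions. Gorasp1, which stacks the cisternae of the Golgi, was at 10.49, 10.91 and 10.997 against 9.06, 10.01 and 10.88 and rose by 0.93 ± 0.25. Igf2r, the receptor that carries hydrolases to lysosomes, rose by 1.09 ± 0.30, with array 22 at 10.004 the lowest ipsilateral array. The lysosomal membrane protein Lamp2 rose in 2 probe sets, by 0.58 ± 0.21 and 0.65 ± 0.22, but both calls were fragile: the first was lost without array 23 (adjusted p = 0.092) and on leaving out any of 10 other arrays, the second on leaving out any 1 of 8, and a further probe set differed by 0.17 and was not called. The lysosomal enzyme Gaa fell by 0.38 with an SE of 0.09, and the fall of Acp2 (difference of -0.31) was lost under quantile normalization (adjusted p = 0.061) and on leaving out any 1 of 12 arrays, so that of 26 lysosomal and endosomal genes counted by their brightest probe set 1 was higher and 2 lower. Acsl4, which loads arachidonic acid onto coenzyme A, rose in all 3 of its probe sets, by 0.49 ± 0.10, 0.45 ± 0.12 and 0.82 ± 0.24; the last was lost without array 21 (0.066) or 24 (0.060). Stat5a, a transcription factor of cytokine signalling, rose in 2 probe sets by 0.75 ± 0.22 and 0.57 ± 0.19, both close to the floor, the first lost without array 20 (0.053) or 24 (0.063) and the second on leaving out any 1 of 8 arrays (up to 0.15).

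The proteasome subunits Psma1, by 0.43 ± 0.11, and Psmc2, by 0.32 ± 0.09, rose, while the activator subunit Psme1 was at 12.73, 12.96 and 13.46 against 13.12, 13.75 and 14.10 and fell by 0.71 with an SE of 0.13. A second probe set of Psma1 differed by -0.46 and a second one of Psme1 by 0.17, neither of them called. The call of Psmc2 was lost without array 24 (adjusted p = 0.056). Over 28 genes of the proteasome and ubiquitin system 3 rose and 1 fell. Of 24 translation factors 3 rose and 4 fell. Eif2ak2, the kinase that halts translation on double-stranded RNA, rose by 0.80 ± 0.21, and Eif5 by 0.47 ± 0.15, the latter lost on leaving out any 1 of 7 arrays. Eif4ebp1, the repressor that holds the cap-binding factor, fell by 1.46 with an SE of 0.31, from a contralateral median of 11.95 to an ipsilateral one of 10.40, with overlap because ipsilateral levels ranged from 8.83 to 11.82. Of 37 ribosomal protein genes 2 rose, Rpl26 by 0.24 ± 0.08 with no overlap, which lost its call without array 18 (0.071) or 19 (0.051), and Rpl35a by 0.33 ± 0.11, lost on leaving out any 1 of 6 arrays.

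Falls were more numerous, and more of them exceeded 2-fold. Drd3, a dopamine receptor, was at 10.85, 11.10 and 11.71 ipsilaterally and at 11.88, 12.20 and 12.63 contralaterally, and it fell by 1.02 with an SE of 0.21 (adjusted p = 0.0012). RT1-DOa, a chain of a class II histocompatibility molecule, was at 10.53, 10.93 and 11.41 against 11.58, 11.97 and 12.36 and fell by 1.04 with an SE of 0.17. Cebpd, a transcription factor of the acute phase response, was at 9.20, 9.54 and 10.04 against 10.08, 10.66 and 11.27 and fell by 1.14 with an SE of 0.23. In these 3 genes and in Stk39, a kinase that regulates chloride cotransporters and fell by 1.11 with an SE of 0.23, every ipsilateral array lay below every contralateral one. The same held for Apoc3, an apolipoprotein of the liver, which fell by 1.15 with an SE of 0.21, and for Fam83f, which fell by 1.04 with an SE of 0.18. The prostacyclin receptor Ptgir fell by 1.15, Lgals3bp, a secreted glycoprotein that binds galectins, by 1.22, the fucosyltransferase Fut1 by 1.27 and the glutathione transferase Mgst2 by 1.06, all with overlap. Tnc, an extracellular matrix protein of reactive glia, fell by 1.34 with an SE of 0.41, a call lost without array 20 (adjusted p = 0.074), and the odorant receptor Or1f32 by 1.21, lost without arrays 19, 21 or 24 (up to 0.092).

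**Figure D2:**
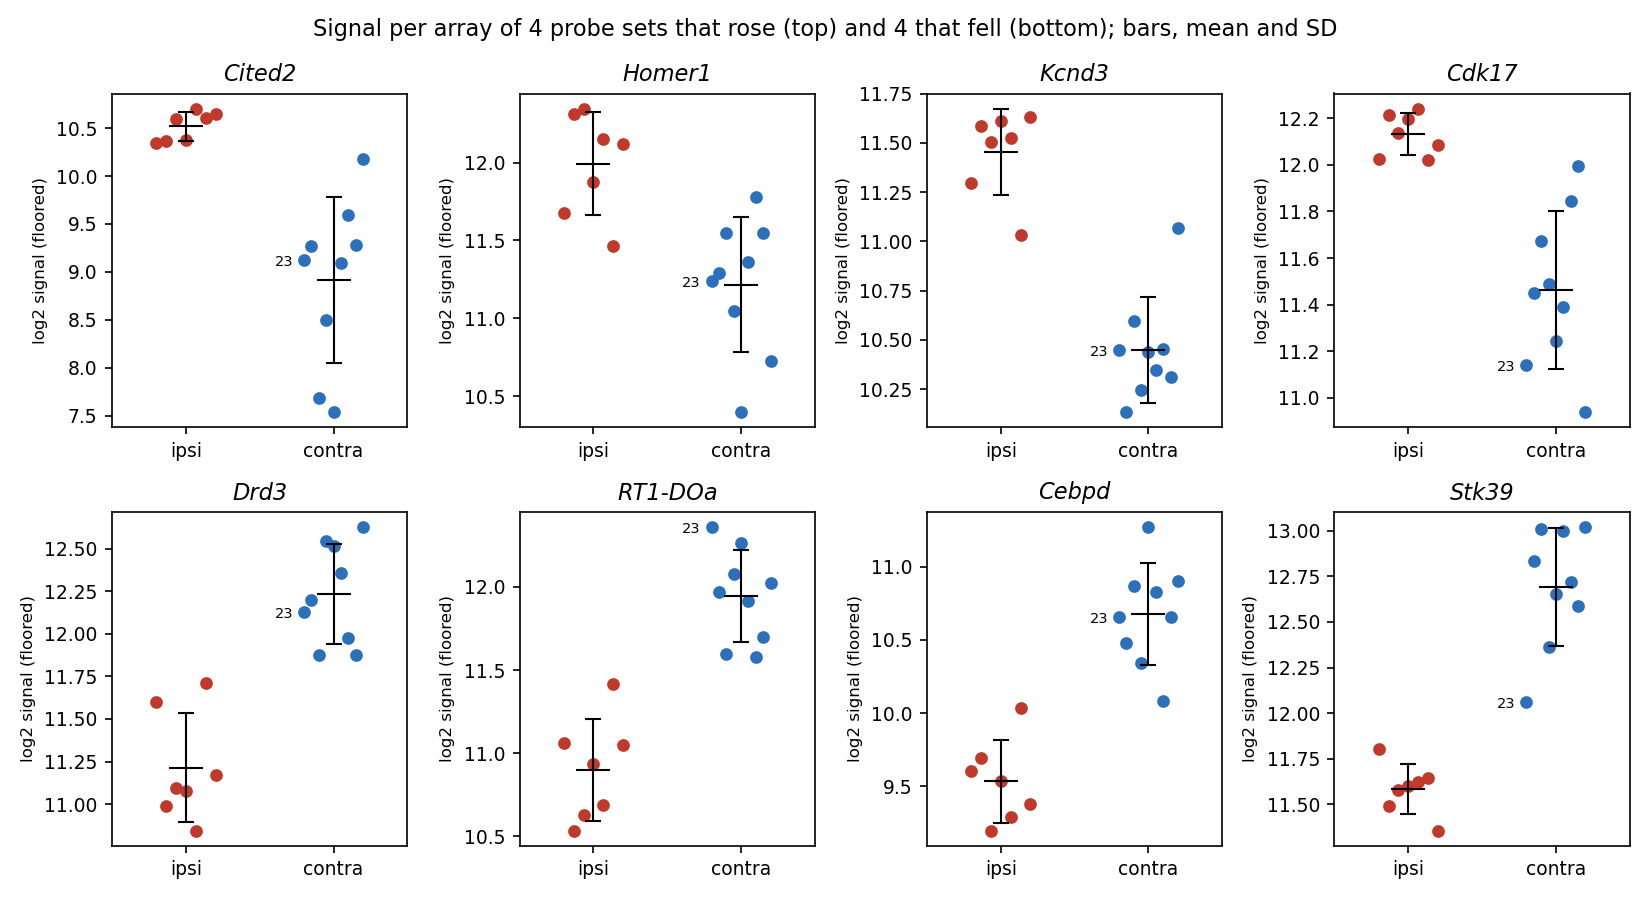
Each panel plots the floored log2 signal of 1 probe set on the 7 ipsilateral (red) and 9 contralateral (blue) arrays, with mean and SD as bars and array 23 marked. Cited2 and Cdk17 in the top row and all 4 genes of the bottom row (Drd3, RT1-DOa, Cebpd and Stk39) show no overlap between the sides, while Homer1 and Kcnd3 overlap narrowly.

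Several of the largest falls were of probe sets whose ipsilateral levels lay near the floor. The probe set U33541cds_at, which names no gene, was at 7.54, 7.54 and 7.85 ipsilaterally, above the floor on 3 of 7 arrays, and at 8.86, 9.81 and 10.25 contralaterally, and it fell by 2.07 with an SE of 0.30 (adjusted p = 6.1e-05). Foxe3, a transcription factor of the lens, fell by 1.86, the odorant receptor Or8g20b by 1.70, Dock8, an exchange factor of leukocytes, by 1.62 in 1 probe set and 0.63 in another, and Igfals, a liver protein that binds insulin-like growth factors, by 1.51 and 0.87. Cngb1, a cyclic nucleotide-gated channel subunit of sensory cells, fell by 1.49 and 0.66, and the liver enzyme Agxt by 1.39, 1.12 and 0.78 in 3 of its 4 probe sets. The smallest of these falls in each gene came from brighter probe sets. Their lowest ipsilateral levels were 9.90 for Dock8 (0.63), 8.80 for Igfals (0.87), 10.50 for Cngb1 (0.66) and 10.26 for Agxt (0.78). Syncollin, Sycn, of pancreatic granules fell by 1.20 and 0.88, and lactase, Lct, by 1.11 and 1.03; the second call of Lct was lost without array 23 (adjusted p = 0.061), under quantile normalization (0.072) and on leaving out any of 7 other arrays. Of the 808 probe sets that fell, 109 were above the floor on under 4 ipsilateral arrays and 20 at the floor on all of them.

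Receptors for monoamines, acetylcholine and purines were lower in the cases called. Of 52 measured, 0 rose and 13 fell by limma (1 and 20 at an unadjusted p under 0.05), and the counts were 0 and 11 after quantile normalization and also without array 23. The shares over all genes were 4.81% rises and 11.5% falls. The median difference was -0.32, or -0.18 after quantile normalization. Chrnb4, a beta subunit of nicotinic receptors, was at 9.38, 9.59 and 10.03 against 10.15, 10.45 and 11.29, and it fell by 0.88 with an SE of 0.20 and no overlap; its second probe set differed by -1.08, a call lost under quantile normalization (adjusted p = 0.069). Its partner Chrna3 fell by 1.09, the muscle-type subunit Chrnb1 by 1.16, the purinergic receptor P2ry4 by 1.42 and the adrenergic receptor Adrb3 by 1.23, each with part of the ipsilateral arrays at the floor. Adrb3 was above the floor on 1 ipsilateral array, number 22. The dopamine receptor Drd5 fell by 0.67, lost without array 18 (adjusted p = 0.059), the serotonin receptor Htr5a by 0.73 and the adrenergic receptor Adra2b by 0.79. Of the 52 genes 40 were at or under the median level of the tested probe sets, against 45.6% of all genes, and with the 10th percentile as a covariate the median difference was -0.08.

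Neuropeptides and their receptors showed the same direction: of 36, 0 rose and 9 fell by limma (1 and 10 at an unadjusted p under 0.05), against 4.81% and 11.5% over all genes. After quantile normalization 2 were higher and 6 lower, and the median went from -0.08 to 0.01. Pdyn, the precursor of the dynorphins that dentate granule cells release, was at 12.50, 12.77 and 13.03 ipsilaterally and 13.004, 13.37 and 13.57 contralaterally, and it fell by 0.58 with an SE of 0.12 (adjusted p = 0.0011); its second probe set differed by -0.33 and was not called. Hcrt, the orexin precursor of hypothalamic neurons, fell by 0.59, and vasopressin, Avp, by 0.63, the latter lost without array 21 (0.056). Of the receptors, Ghrhr fell by 0.87 with an SE of 0.16, Tshr by 0.83 with no overlap, the angiotensin receptor Agtr1a by 0.97 and Vipr1 by 0.87, the last lost under quantile normalization (0.075) and without arrays 17, 19, 20 or 28 (up to 0.069).

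Genes known from other organs fell in larger shares than genes did over the whole array. Of 57 liver genes 0 rose and 15 fell, of 38 pancreas and gut genes 0 and 10, of 42 muscle and heart genes 0 and 11, of 26 testis and germ cell genes 2 and 7, of 23 odorant, taste and visual receptors 2 and 5, and of 20 pituitary and thyroid hormone genes 0 and 5, against 4.81% rises and 11.5% falls over all genes. At an unadjusted p under 0.05 by limma the liver list had 1 higher and 25 lower, the pancreas and gut list 0 and 18, the muscle list 0 and 18 and the hormone list 0 and 8. Examples were afamin (Afm), a plasma protein of the liver, which fell by 1.40, Cyp3a23-3a1 by 1.34 with no overlap, Cyp4a1 by 1.31, the islet transcription factor Pax4 by 1.37 and the trefoil peptide Tff3 by 1.18. Ckm and Aqp7 of muscle and fat fell by 1.002 and 0.99, and the acrosomal protein Acrv1 by 1.13; another acrosomal gene, Acr, rose by 0.86 ± 0.27, a call lost without array 18 (adjusted p = 0.062) or 25 (0.053). The calls of Ckm and Aqp7 were lost under quantile normalization (0.11 and 0.059), without array 23 (0.066 and 0.055) and on leaving out any of 7 and 5 other arrays. These lists are dim: 49 of the 57 liver genes and 34 of the 42 muscle genes lay at or under the median level. With the low end as a covariate the median difference of the liver list went from -0.36 to 0.00, that of the pancreas and gut list from -0.39 to -0.04 and that of the testis list from -0.45 to -0.21.

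**Figure D3:**
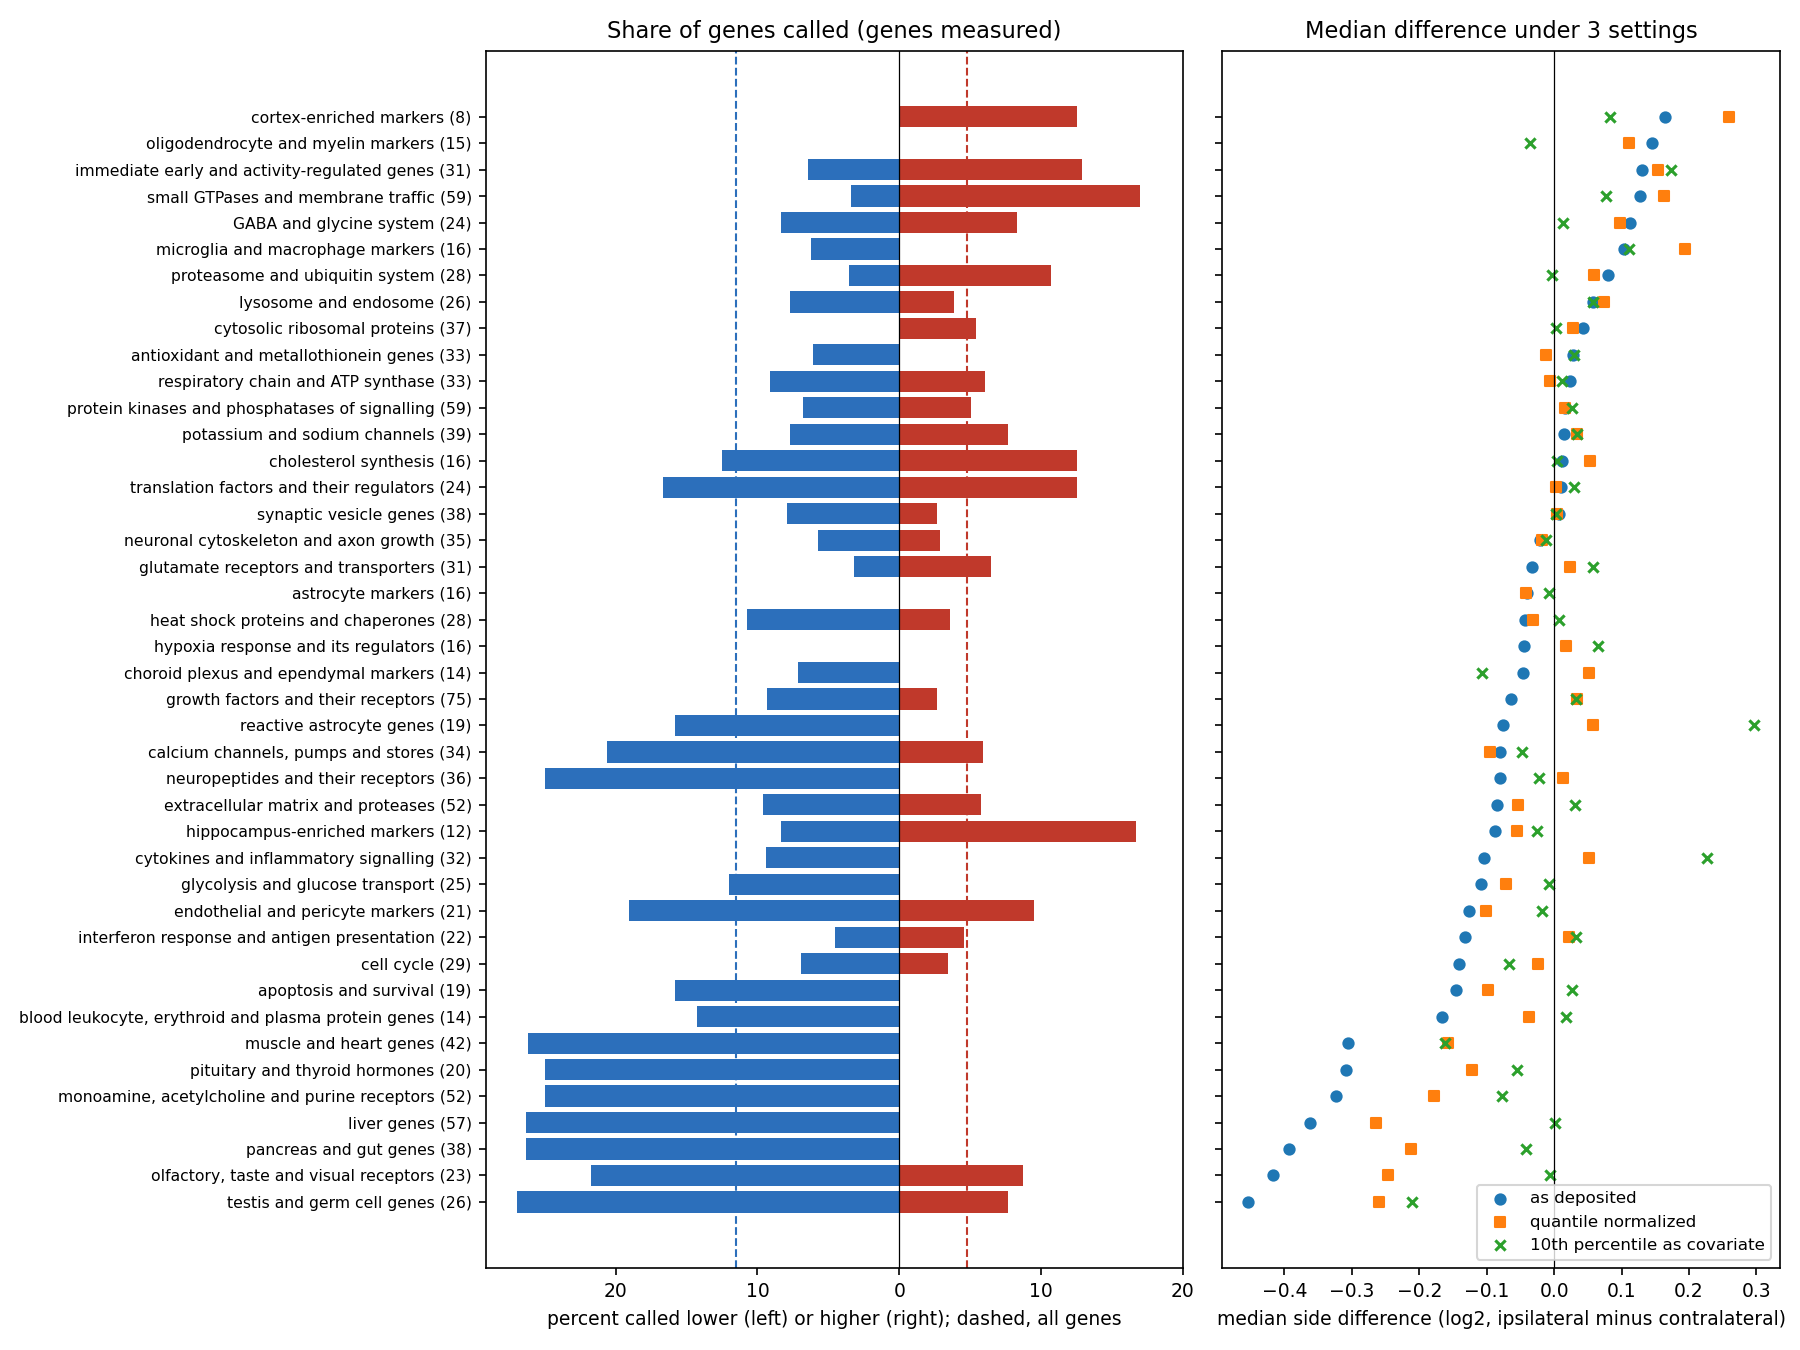
The left panel plots, for each gene list with the number of measured genes in brackets, the percent called lower (blue, to the left) and higher (red, to the right), with dashed lines at the shares over all genes, 11.5% and 4.81%. The right panel plots each list's median side difference (log2) as deposited, after quantile normalization and adjusted for the array's 10th percentile; the liver list moves from -0.36 to 0.00 between the first and the last.

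Markers of glia and vessels were mostly not called. By limma 0 of 16 astrocyte markers were called (1 higher and 1 lower at an unadjusted p under 0.05) and 0 of 15 oligodendrocyte and myelin markers (2 higher and 1 lower), with 0 in both lists after quantile normalization too, and of 16 microglia and macrophage markers 1 fell, the complement gene C1qc, by 0.43 with an SE of 0.13, lost without arrays 20, 21 or 32 (adjusted p up to 0.062). Of 14 blood leukocyte, erythroid and plasma protein genes 2 fell, against 11.5% of all genes: the lymphocyte kinase Lck by 0.98 with an SE of 0.19 and the erythrocyte anion exchanger Slc4a1 by 0.67. Of 21 endothelial and pericyte markers 2 rose and 4 fell, or 2 and 0 after quantile normalization. Acta2 rose, as did Myh11 of smooth muscle, by 0.81 ± 0.27, a call lost on leaving out any 1 of 9 arrays (adjusted p up to 0.11). The falls of Pdgfrb (difference of -0.88) and Ly6c (-1.01) were lost under quantile normalization (adjusted p of 0.11 and 0.12) and on leaving out any 1 of 10 and of 12 arrays.

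Several genes of inflammation were high on 4 arrays that come from both sides. Of 32 cytokines and inflammatory signalling genes, 0 rose and 3 fell by limma (Cebpd, Vcam1 and Il1r2; 2 higher and 3 lower at an unadjusted p under 0.05), with a median of -0.10 as deposited and 0.05 after quantile normalization. The chemokine Ccl2, which draws monocytes, stood at 13.10 on array 21, 10.97 on array 22, 11.53 on array 23 and 12.67 on array 24, and at 7.54 to 9.44 on the other 12. The interferon-induced chemokine Cxcl10 stood at 10.91, 10.10, 10.61 and 10.41 on the same 4 arrays and at 7.54 to 9.26 elsewhere. Ccl3, a chemokine of microglia and macrophages, was at 11.10, 9.36, 9.86 and 10.18 on them and at most at 7.80 on the others. Of these 4 arrays 21, 22 and 24 are ipsilateral and 23 is contralateral, and on each side other arrays were low. The 4 arrays also carry consecutive extraction numbers. Interleukin 1 beta (Il1b) in 1 of its 2 probe sets, and Timp1, an inhibitor of matrix proteases, in 1 of 2, were high on the same arrays, with 9.88, 8.43, 9.73 and 9.21 for Il1b and 10.96, 10.51, 10.42 and 11.40 for Timp1. These genes were picked after their values were seen.

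Ccl2 differed between the sides by 0.63 ± 0.66 and 0.93 ± 0.55 in its 2 probe sets, Cxcl10 by 0.48 ± 0.42, Ccl3 by 0.86 ± 0.42 and Timp1 by 0.79 ± 0.61 in its probe set that was high on these arrays, and none of these was called. Without array 23 the adjusted p of Ccl3 went from 0.15 to 0.055, and that of Il1b in the same probe set from 0.22 to 0.035, which passes the threshold at a main difference of 0.50 ± 0.28. The second probe sets of Il1b and Timp1 differed by -0.30 and -0.48. The mean level of the whole cytokine list, centred on the 16 arrays, was 0.64, 0.26, 0.55 and 0.60 on arrays 21, 22, 23 and 24. It lay between -0.59 and -0.23 on the other ipsilateral arrays and between -0.22 and 0.20 on the other contralateral ones. The list holds genes by which these 4 arrays were picked, such as Cxcl10, so part of its mean follows from that choice. No mean without such genes was computed. The mean of 19 reactive astrocyte genes was 0.42, 0.33, 0.45 and 0.57 on those 4 arrays, and up to 0.35 on the other contralateral arrays. In that list 0 rose and 3 fell by limma (1 higher and 4 lower at an unadjusted p under 0.05): Tnc, the intermediate filament Nes by 0.60 with an SE of 0.14, and the small heat shock protein Hspb1 by 0.95 with an SE of 0.22 in 1 probe set of 4, the others of which differed by 0.18, 0.67 and -0.52. Vcam1, an adhesion molecule of activated vessels, fell by 0.44 with an SE of 0.13. Il1r2, the decoy receptor of interleukin 1, fell by 0.71 with an SE of 0.25, a call lost under quantile normalization (adjusted p = 0.12), without array 23 (0.054) and on leaving out any of 10 other arrays.

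The NF-kappa-B site, through which inflammatory signals act on chemokine and adhesion genes, was searched for on both strands in the same promoter windows. It occurred in 1142 of 27457 promoters (4.16%), in 176 of the 3472 tested genes with a promoter (5.07%), in 8 of 248 that rose (3.23%), in 27 of 463 that fell (5.83%) and in 9 of 23 genes of the cytokine list (39.1%). The sites of Cxcl10 and Vcam1 are shown, from RefSeq (GRCr8), because one gene was high on 4 arrays of both sides and the other fell. Cxcl10 lies at chr14:15988849-15988918 on the plus strand and Vcam1 at chr2:206742837-206742906 on the minus strand, with the match in capitals.
Cxcl10: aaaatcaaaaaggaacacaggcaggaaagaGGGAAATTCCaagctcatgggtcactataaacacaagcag
Vcam1: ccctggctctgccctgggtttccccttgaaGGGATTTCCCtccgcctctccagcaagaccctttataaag
Both matches lie before the start of the gene.

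**Figure D4:**
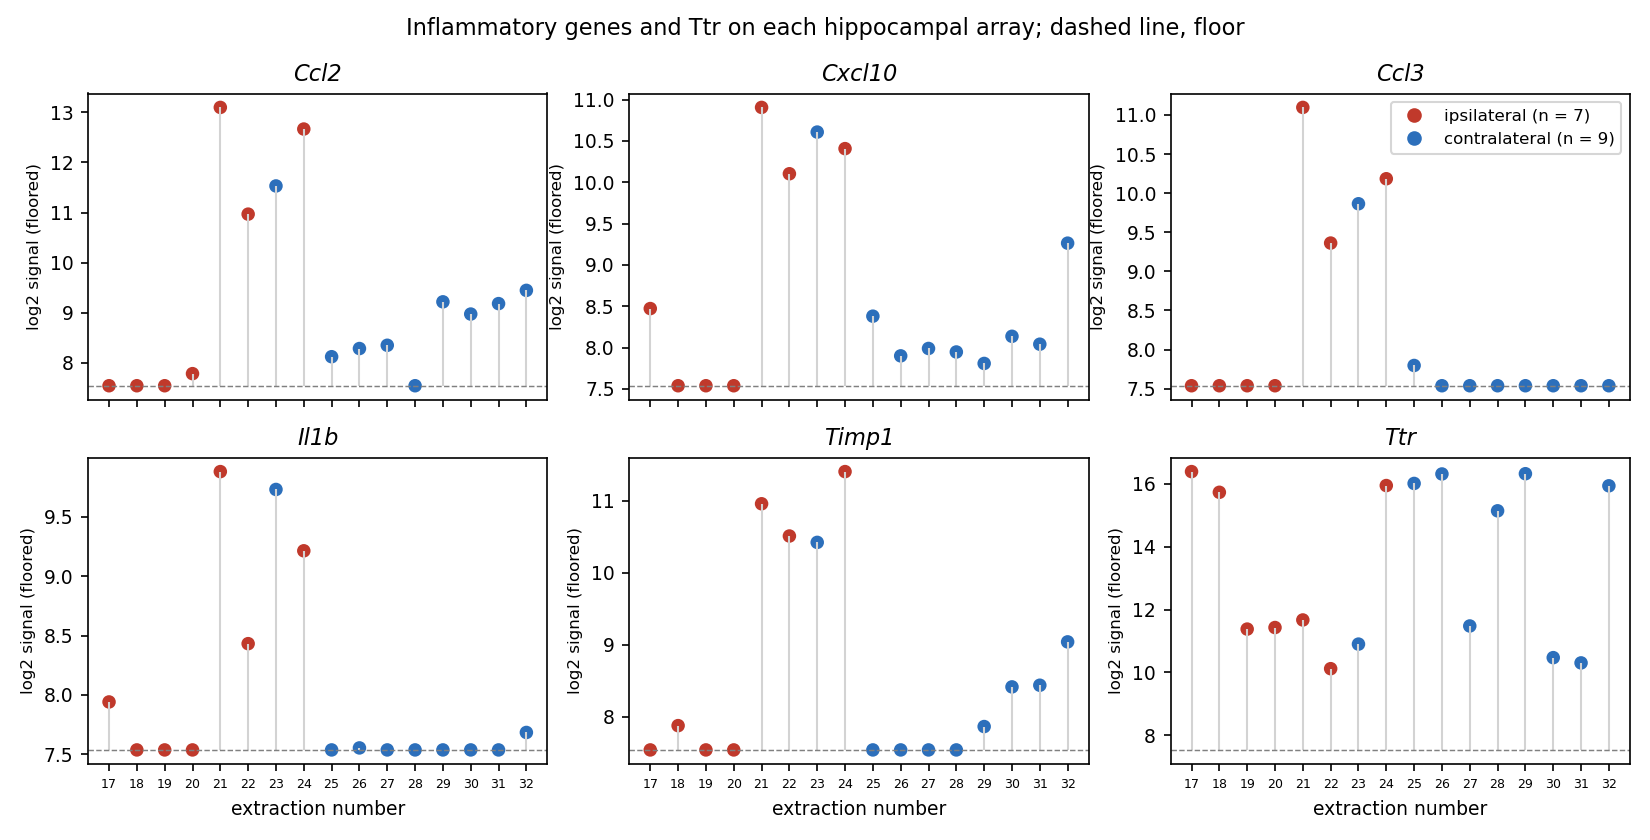
Each panel plots the floored log2 signal of 1 probe set (Ccl2, Cxcl10, Ccl3, Il1b, Timp1 and Ttr) against extraction number, ipsilateral arrays in red and contralateral ones in blue, with the floor of 7.54 dashed. The first 5 genes are high on arrays 21 to 24, of which 23 is contralateral, while Ttr follows another set of arrays.

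Transthyretin (Ttr), the main product of the choroid plexus, divided the arrays in another way. It was at 15.14 to 16.39 on arrays 17, 18, 24, 25, 26, 28, 29 and 32 and at 10.12 to 11.67 on the other 8, with arrays of both sides in each set, and the side difference was -0.42 ± 1.16 (adjusted p = 0.84, limma). Array 23 was in the low set, at 10.90. The mean of the 14 choroid plexus and ependymal markers was 0.23 to 0.73 on the arrays with high Ttr and -0.60 to -0.31 on the others. Ttr is itself a marker of the choroid plexus, so this mean is no separate check of the split by Ttr. By limma 1 of the 14 was called, the prolactin receptor Prlr, which fell by 1.13 with an SE of 0.31. The part of this tissue in the side differences was not tested.

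The remaining groups were mixed. Their counts here and in the following paragraphs on gene groups stand beside 4.81% rises and 11.5% falls over all genes. Among 59 protein kinases and phosphatases 3 rose and 4 fell; the receptor kinase Grk4 fell by 1.40 with an SE of 0.33 and the protein kinase A subunit Prkar2a by 0.88 with an SE of 0.18. Of 19 genes of apoptosis and survival 0 rose and 3 fell by limma (3 and 6 at an unadjusted p under 0.05), among them the survival factor Bcl2 by 0.83 with an SE of 0.18. The falls of the death factors Bak1 (difference of -0.34) and Bcl2l11 (-0.59) were lost without array 19 (adjusted p = 0.069) and on leaving out any 1 of 10 arrays (up to 0.16); Bcl2l11 also lost its call under quantile normalization (0.10).

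Of 25 genes of glycolysis and glucose transport 0 rose and 3 fell by limma (1 and 6 at an unadjusted p under 0.05): hexokinase Hk2 by 0.69 with an SE of 0.20, Pfkfb4, which makes the activator of phosphofructokinase, by 0.66 with an SE of 0.14, and Aldoa by 0.21, lost on leaving out any 1 of 13 arrays. This count of falls is near the share over all genes, 11.5%. Among 33 genes of the respiratory chain 2 rose, the complex I subunits Ndufs4 by 0.37 ± 0.10 and Ndufa5 by 0.35 ± 0.10, and 3 fell, among them Cox4i2 by 0.65 with an SE of 0.12. Of 33 antioxidant and metallothionein genes 0 rose and 2 fell by limma (2 and 7 at an unadjusted p under 0.05), the mitochondrial proteins Prdx3 by 0.37 and Txn2 by 0.33; Prdx3 was lost without arrays 21, 24 or 32 (up to 0.063). Of the hypoxia list 0 of 16 genes were called by limma, with 1 higher and 2 lower at an unadjusted p under 0.05, and 0 after quantile normalization.

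Of 16 genes of cholesterol synthesis 2 rose and 2 fell: Cyp51 rose by 0.36 ± 0.11, lost without array 20 (adjusted p = 0.065), Idi1 by 0.60 ± 0.19, lost on leaving out any 1 of 5 arrays, and Ebp fell by 0.50 with an SE of 0.12. Of 28 heat shock proteins and chaperones 1 rose and 3 fell. Hspb2 fell by 0.95 with an SE of 0.22, and the calnexin gene Canx rose by 0.49 ± 0.17, a call lost under quantile normalization (0.056) and on leaving out any 1 of 8 arrays. The translocon subunit Ssr4 fell by 0.53 with an SE of 0.12. Of 29 cell cycle genes the replication clamp Pcna rose by 0.52 ± 0.14, and the helicase subunit Mcm7 and the kinase Plk1 fell by 0.57 and 0.60 on the log2 scale; Plk1 lost its call on leaving out any 1 of 5 arrays.

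Of 75 growth factors and their receptors 2 rose and 7 fell, or 2 and 1 after quantile normalization; the fall of Tgfb3 (difference of -0.78) was lost under it (adjusted p = 0.11) and on leaving out any 1 of 9 arrays. Of 52 genes of extracellular matrix and its proteases 3 rose and 5 fell, with the proteases Mmp2 and Mmp7 falling by 1.09 and 1.08 on the log2 scale. Of 22 genes of interferon response and antigen presentation 1 rose, the receptor chain Ifnar1 by 0.65 ± 0.20, lost without arrays 21 or 28 (up to 0.063), and 1 fell, Oas1a by 0.61, lost without array 19 (0.052). Of 35 genes of the neuronal cytoskeleton and axon growth 1 rose and 2 fell. The adhesion protein Cntn1 fell by 0.62 with an SE of 0.18. The rise of the neurofilament Nefl (0.31 ± 0.11) was lost under quantile normalization (0.052) and on leaving out any 1 of 7 arrays, and the fall of Crmp1 (difference of -0.16) on leaving out any 1 of 12. Remaining single genes were the zona pellucida gene Zp1, which fell by 0.79, the lens crystallin Crybb2, which fell by 1.0015 but not under quantile normalization (0.064) or on leaving out any 1 of 7 arrays, and the thyrotropin-releasing hormone receptor Trhr, which fell by 0.69, lost without arrays 23 (0.054) or 24 (0.060).

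Where several probe sets read 1 gene they often gave different calls. Of 1346 genes with at least 2 tested probe sets, 447 had at least 1 call; 369 of them had exactly 1, 65 had 2 or more in 1 direction with 0 in the other, and 13 had calls in both directions. Genes with 2 or more rises numbered 24 and those with 2 or more falls 42. Acsl4 was called in 3 of 3 probe sets and Gabra4 in 2 of 2, while Homer1 was called in 3 of 6.

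Falls outnumbered rises in the 3 dimmer of 4 brightness classes. In 4 equal classes of mean level, from dimmest to brightest, the counts higher and lower were 48 and 151, 65 and 299, 129 and 219, and 157 and 139. The median difference was -0.12, -0.15, -0.00 and 0.04. After quantile normalization the same classes gave 79 and 56, 126 and 170, 160 and 190, and 135 and 167, so that the excess of falls in the dimmest class was not present under that scaling. Of the 1207 calls 925 were also made after quantile normalization, 374 of the 399 rises and 551 of the 808 falls.

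Adding log2 of the 10th percentile to the fit as a covariate left 5 calls, with 747 at an unadjusted p under 0.05. They were the rises of Crispld2 (1.33, adjusted p = 0.048) and Cdk17 (0.38, adjusted p = 0.048), and the falls of U33541cds_at (difference of -1.42, adjusted p = 0.048), of the galactose enzyme Galt (-0.60, 0.028) and of Fam241b (-0.76, 0.028). Galt had differed by -0.46 ± 0.11 without the covariate, and Fam241b by -0.46 ± 0.15, a call lost under quantile normalization (0.11) and on leaving out any 1 of 5 arrays. Of the 1207 probe sets 1198 kept their sign with the covariate, 396 of 399 rises and 802 of 808 falls, and 432 had an unadjusted p under 0.05 in the same direction. The 1207 were chosen on the same arrays, so this agreement is in part set by that choice. The median ratio of the difference with the covariate to that without it was 0.48. The difference of Cited2 went from 1.60 to 1.09 (adjusted p = 0.30), of Homer1 from 0.78 to 0.62 (0.096), of Kcnd3 from 1.01 to 0.82 (0.083), of RT1-DOa from -1.04 to -0.48 (0.10), of Cebpd from -1.14 to -0.56 (0.37) and of Drd3 from -1.02 to -0.42 (0.43).

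Over the arrays whose 10th percentile lay in the range that both sides share, 3 ipsilateral (17, 22 and 24) against 3 contralateral (25, 30 and 31), 1 probe set was called and 433 had an unadjusted p under 0.05. In this comparison 1152 of the 1207 differences had the same sign. These arrays were among those by which the 1207 were chosen, so that agreement is in part set by the choice. Within the ipsilateral side the mean level of the 808 probe sets that fell followed the 10th percentile (Pearson r = 0.96, exact permutation p = 0.00119, adjusted over 4 relations 0.00476, Spearman rho 0.86, exact permutation p = 0.0238, n = 7), and r was 0.83 without arrays 17 and 22. Within the contralateral side it did so too (r = 0.75, exact permutation p = 0.0210, adjusted 0.0420, rho 0.82, exact permutation p = 0.0108, n = 9), with r = 0.97 without arrays 23 and 32. The mean of the 399 that rose gave r = -0.77 (exact permutation p = 0.0516, rho -0.39, exact permutation p = 0.396, n = 7) and -0.65 (exact permutation p = 0.0593, rho -0.65, exact permutation p = 0.0666, n = 9), neither of which passed after adjustment. The first of these turned to 0.69 without arrays 17 and 22 and so rests on them, and the second was -0.92 without arrays 23 and 32. The same relations for probe sets that were not called were not tested.

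Array 23, labelled contralateral, carries a number that lies among those of the ipsilateral arrays. Its median correlation with the other hippocampal arrays was 0.950, the lowest of the 16, against 0.953 to 0.971. When the probe sets called without it were used to place each array between the mean of the contralateral arrays other than 23, at 0, and that of the ipsilateral arrays, at 1, with the placed array left out of both means, it stood at 0.185. The other contralateral arrays stood between -0.356 and 0.458 and the ipsilateral ones between 0.583 and 1.19. The probe sets had been chosen with these other arrays and their labels, so the gap between the sides is in part set by that choice. Most of the probe sets used for the placement were falls, whose mean level followed the 10th percentile within each side. Array 23 had the highest 10th percentile of the 16, so its place is no separate check of its label. Without it 1109 probe sets were called, 366 higher and 743 lower, 1011 of them among the 1207, and 0 of the 1207 changed sign. The remaining arrays had served to choose the 1207, so this agreement is in part set by that choice. Of the genes named above, the calls lost without it were those of Jun, Lamp2 in 1 probe set, Myh11, Rpl35a, Aldoa, Acp2, Grm7, Trhr, Il1r2, Bcl2l11, Tgfb3, Kcne1, Pdgfrb, Aqp7, Ckm and Lct in 1 probe set, with adjusted p from 0.0501 (Tgfb3) to 0.092 (Lamp2), and each of these was also lost on leaving out some other array. With array 23 left out and the 10th percentile as covariate 9 were called.

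In cortex at the same time 0 probe sets were called by limma, with 558 at an unadjusted p under 0.05, and 546 of the 1207 hippocampal calls (45.2%) had the same sign in cortex. A test of the difference between the regions called 314 probe sets (4.18%), 81 with a higher and 233 with a lower value in hippocampus, and 276 of them were also called within hippocampus. It called 151 without array 18, 186 without array 21, 192 without array 19 and 195 without array 28, and 1 with the 10th percentile as a covariate. Cngb1 differed most clearly in 1 probe set, with -1.49 in hippocampus and 0.73 in cortex (difference of -2.22, adjusted p = 8.5e-04). Several of its ipsilateral hippocampal arrays were at the floor. The brighter probe set of Cngb1 that fell in hippocampus was not called in the test between the regions. Arrdc1, an arrestin-domain adaptor, fell by 0.72 in hippocampus with an SE of 0.12 and no overlap, and differed by 0.23 ± 0.12 in cortex. Homer1 differed by 0.78 in hippocampus and -0.31 in cortex (1.09, adjusted p = 0.0026), Kcnd2 by 0.45 and -0.19 (0.64, adjusted p = 0.0086) and Cited2 by 1.60 and -0.56 (2.16, adjusted p = 0.012). In cortex the 10th percentile did not separate the sides as it did in hippocampus, and the part of this in the difference between the regions was not tested.

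**Figure D5:**
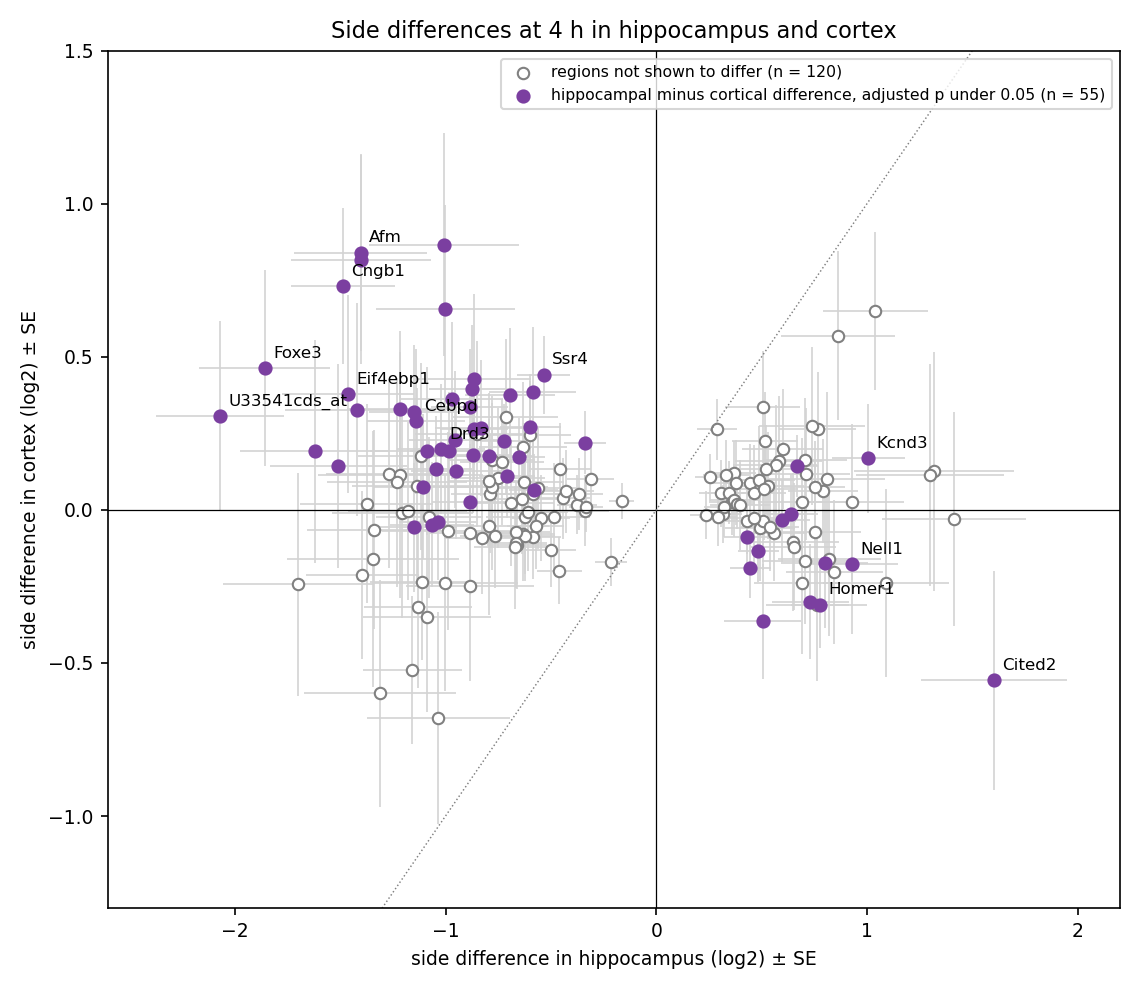
The side difference (log2, ipsilateral minus contralateral) in hippocampus is plotted against that in cortex at 4 h for the 175 named probe sets called in hippocampus, with SE bars. Filled points are the 55 whose difference between the regions was called and open points the other 120. Most filled points lie on opposite sides of 0 in the 2 regions, as Homer1 does with 0.78 and -0.31. All points were chosen by their call in hippocampus, so this pattern is in part set by that choice.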

How the data were processed

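The 16 hippocampal arrays are Affymetrix rat genome arrays, whose deposited values are the authors' intensity per probe set on a linear scale, brought to a common trimmed mean per the values. The algorithm that made them is not given in the sources used here. From 8799 probe sets 59 controls were left out. Signals were raised to a floor, the 25th percentile over the table, and taken to log2; probe sets above it on at least 7 arrays (7503) were tested with limma 3.58.1 in R 4.3.3, over all 47 arrays with 6 group means and an intensity trend, with Benjamini-Hochberg adjustment. The cortical arrays at 24 h thus enter the estimate of spread only. Gene names came from the platform annotation: 7018 probe sets had 1 symbol, 308 several and 1473 none, and 6994 of the first matched RefSeq by gene ID. Lists count 1 probe set per gene. Sides were compared by number of arrays; no depth applies.

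Named genes were the 12 largest rises and falls above the median level, the 4 largest of any brightness, those called with the 10th percentile as covariate (at most 10), genes with several probe sets called alike (at most 6 each way), at most 3 members per list, and the 5 clearest differences from cortex. Members and lists were chosen with earlier results of these data known; further genes and both motif searches were chosen after values were seen. Alternatives were other floors, filters and scalings, array weights, the covariate and left-out arrays.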

Additional observations from a re-analysis of the deposited data

Results flagged for a closer look

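Single arrays stood far from the rest of their side in 44 of 368 groups of values examined (183 probe sets on both sides, and the 10th percentile). The number given for each gene is the gap between that array and its nearest neighbour as a share of the whole range of its side. For normally distributed values chance alone sets about 1 in 20 groups apart in this way. Some groups hold values at the floor, so the count of 44 cannot be set against that rate. A share of 1 (Adrb3, Lct and Stat5a) means that all other arrays of the side were at the floor. Array 17, ipsilateral, stood higher for Cngb1 (0.686) and Lct (1). Array 18, ipsilateral, stood lower for Igfals (0.611), Hspb1 (0.568) and Tgfb3 (0.583). Array 20, ipsilateral, stood lower for Bcl2l11 (0.701). Array 22, ipsilateral, stood higher for P2ry4 (0.647), Adrb3 (1), Agtr1a (0.592), Sycn (0.757), Cngb1 (0.618) and Slc6a11 (0.616) and stood lower for Igf2r (0.578), Ptpn23 (0.726) and Psma1 (0.572). Array 23, contralateral, stood higher for Ccl2 (0.523 and 0.521 in its 2 probe sets), Ccl3 (0.889) and Il1b (0.933) and stood lower for Cngb1 (0.65), Vcam1 (0.616) and Atp2b4 (0.521). Array 24, ipsilateral, stood higher for Arf6 (0.595). Array 26, contralateral, stood higher for Stat5a (1). Array 27, contralateral, stood lower for Rab10 (0.659), Pdgfrb (0.56) and Canx (0.588). Array 28, contralateral, stood higher for Mmp7 (0.525) and stood lower for Ube2g2 (0.504), Mtpn (0.643) and Ppp1cb (0.704). Array 29, contralateral, stood lower for Chrnb1 (0.55). Array 30, contralateral, stood higher for Acsl4 (0.664) and stood lower for Lct (0.646). Array 31, contralateral, stood higher for Arl2 (0.592), Zbtb24 (0.663) and Jun (0.566) and stood lower for Dock8 (0.592), Agxt (0.671) and Crmp1 (0.554). Array 32, contralateral, stood higher for Kcnd3 (0.506), Apoc3 (0.497) and Stat5a (0.886) and stood lower for Nefl (0.696).

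For 55 of the 183 probe sets described, the side difference at 4 h itself differed between hippocampus and cortex (limma, adjusted p under 0.05 over all 7503 probe sets). Over all 7503 probe sets the count was 314 (4.18%), and among the 1207 called in hippocampus it was 276. Of the 183, 175 were called in hippocampus, and the 5 clearest differences from cortex were named for that reason. The count of 55 is therefore in part set by the choice of probe sets. The values here are the hippocampal minus the cortical side difference on the log2 scale. It was positive for Cited2 (2.16), Nell1 (1.10), Homer1 (1.09), Mtpn (1.03), Eif2ak2 (0.97), Homer3 (0.87), Kcnd3 (0.84), Nptx1 (0.65), Kcnd2 (0.64), Homer1 (0.63), Acsl4 (0.62), Cdk17 (0.52) and Pvalb (0.52). The lowest values were those of U33541cds_at (-2.38), Foxe3 (-2.32), Afm (-2.24), Grk4 (-2.22), Cngb1 (-2.22), Ly6c (-1.87), Eif4ebp1 (-1.84), Dock8 (-1.81), P2ry4 (-1.75), Crybb2 (-1.66), Igfals (-1.65), Lgals3bp (-1.55), Apoc3 (-1.47) and Cebpd (-1.43). Next came Agtr1a (-1.33), Vipr1 (-1.29), Chrna3 (-1.28), Chrnb4 (-1.27), Sycn (-1.22), Drd3 (-1.22), Stk39 (-1.18), Hspb1 (-1.18), RT1-DOa (-1.18), Lck (-1.17), Ghrhr (-1.13), Tshr (-1.10), Ptgir (-1.09) and Hspb2 (-1.07). Then came Trhr (-1.07), Igfals (-1.05), Mgst2 (-1.02), Fam83f (-0.996), Ssr4 (-0.98), Bcl2l11 (-0.97), Zp1 (-0.97), Arrdc1 (-0.95), Prkar2a (-0.91), Nes (-0.87), Cox4i2 (-0.83), Psme1 (-0.82), Pdyn (-0.65) and Bak1 (-0.56).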

How the results depend on the processing

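The count of 1207 side differences stayed within 1.5 times under another floor, log2 of signal plus the 25th percentile, no filter, a filter on all 16 arrays, quantile normalization, quantile normalization without array 23, no intensity trend and the 16 arrays alone (949 to 1291). Array weights gave 1881. The 10th percentile as a covariate gave 5, the same on the 16 arrays alone 27, the shared range of the 10th percentile 1, quantile normalization with the covariate 0 (748 at an unadjusted p under 0.05, limma) and the covariate without array 23 gave 9. Leaving out 1 array at a time gave 799 to 1446. The count of 314 differences between hippocampus and cortex became 1 with the covariate and 151 to 455 on leaving out 1 array; array weights gave 467. The difference in log2 of the 10th percentile was -0.60 to -0.46 on leaving out 1 array. Higher against lower calls between the regions in contralateral tissue were 1676 and 854 as deposited and 1007 and 1034 after quantile normalization. The side split was 399 and 808 as deposited and 500 and 583 after quantile normalization.

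Over the 175 probe sets described that were called, 1548 of 1679 comparisons under alternatives without the covariate or the shared range kept the call, 131 lost it and 0 changed sign. On leaving out 1 array 2412 of 2800 kept it and 388 lost it. With the covariate or in the shared range 20 of 875 kept it, 843 lost it and 12 changed sign. The values that changed sign were, in the shared range, 0.080 for Egr4, -0.000388 for Acsl4 (D85189_at), -0.15 for Ptpn23, -0.060 for Serinc5, 0.14 for Atp2a3, -0.064 for Canx, 0.0047 for Aldoa and 0.12 for Il1r2. Il1r2 was at 0.035 with the covariate, at 0.040 with the covariate and without array 23, and at 0.084 with quantile normalization and the covariate. C1qc was at 0.0052 with the covariate on the 16 arrays alone. Of differences that were not called, Ttr was at 1.89 in the shared range and at -0.94 (without 17) to 0.10 (without 22) on leaving out 1 array, and Hspb1 (M86389cds_s_at) at -0.034 with array weights and at -0.032 (without 24) to 0.44 (without 19) on leaving out 1 array, with -0.010 without 22. The cause was not tested. The covariate, the shared range and the left-out arrays were set with these data known; the combinations of covariate and quantile normalization, and of covariate and leaving out array 23, were added after seeing the data.

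No paired analysis was possible because the labels do not say which arrays, if any, share an animal. The extraction numbers, each of which occurs once, do not tell this. Signal near the floor of 7.54 limits the falls: 109 were above it on under 4 ipsilateral arrays, and since contralateral arrays can lie at the floor too, the size of such falls depends on it.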

Other observations

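The ribonucleoprotein gene Hnrnpu, chosen after its values were seen, was at 10.14 on array 23 and at 11.91 to 12.94 on the other 15 hippocampal arrays in 1 of its probe sets, and at 13.12 against 13.45 to 14.19 in the other.

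The lysophospholipase Enpp2, which choroid plexus and oligodendrocytes express, was in 1 of its 2 probe sets at 13.45 and 13.61 on arrays 29 and 17 and at 11.60 on array 23, the lowest of the 16. Socs3, a feedback inhibitor of cytokine signalling, was at 10.15, 9.80, 9.98 and 9.71 on arrays 21, 22, 23 and 24 and at 7.54 to 9.63 on the others.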
